A study of Macaca mulatta with 22 samples.

Results

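The genes described here are 52 members of the WNT signalling family as they were measured in single rhesus macaque follicles between the time before an ovulatory stimulus and the hours after ovulation. A gene was taken as a member when its platform symbol alone named a WNT ligand, a frizzled or ROR receptor, LRP5 or LRP6, an R-spondin or its LGR receptor, an SFRP, DKK or WIF1 antagonist, APC, an AXIN, a dishevelled protein, GSK3A or GSK3B, or a TCF or LEF factor. This gave 52 of the 14132 genes that had a symbol of their own on the array. The rule reads symbols only. The 52 comprise 17 ligands, 13 receptors and co-receptors, 5 genes of the R-spondin arm, 9 secreted antagonists, 5 cytoplasmic regulators and 3 nuclear factors. A further 9 family genes (AXIN1, DVL1, DVL3, FZD2, LEF1, LGR6, RSPO4, WNT3A and WNT9A) had no probe set under a symbol of their own in the annotation used and were not analysed here.

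WNT ligands are secreted, lipid-modified proteins that bind a frizzled receptor together with LRP5 or LRP6. Without a ligand, a complex of AXIN, APC and GSK3 marks beta-catenin for destruction, and with one, dishevelled proteins stop that complex, so that beta-catenin enters the nucleus and acts through TCF and LEF factors. R-spondins and their LGR receptors strengthen the signal, while SFRP and WIF1 proteins catch ligands and most DKK proteins block the LRP co-receptors. In the ovary, WNT4 and RSPO1 are known for their part in ovarian development, and FZD4 for corpus luteum formation in the mouse.

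Each array held RNA from 1 dominant follicle. The sample titles and sources call every sample a follicle and give its group, while the free-text descriptions of all but 1 sample, 0 h samples included, speak of a developing corpus luteum, and the groups used here are those of the titles. Monitored females whose serum estradiol had reached 100 to 120 pg/ml received a GnRH antagonist (Acyline) together with 30 IU each of recombinant human FSH and LH, so that the animal's own gonadotropins were suppressed and replaced in every group. The 6 follicles at 0 h were taken without an ovulatory dose, and all others came after 1000 IU of recombinant human chorionic gonadotropin (hCG), which acts in place of the LH surge. Of these, 4 were collected 12 h later, 4 at 24 h, 4 at 36 h before rupture and 4 at 36 h after rupture. The labels do not say that the follicles came from separate animals, so the p-values cover the variation among follicles only, and ruptured and unruptured follicles at 36 h were not randomised to their state. Whole follicles were measured, so fewer cells of a type and less RNA per cell cannot be told apart.

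Values are log2 of the deposited intensities, on which a difference of 1 is a factor of 2, and array medians were close together, at 26.1 to 26.7 before taking the log. A gene is given by its brightest probe set, and levels of different genes are not compared, since probes differ in brightness. Granulosa and theca markers were present in every group. The summed intensity of 8 granulosa markers was 6534 to 14682 at 0 h, 2676 to 12190 at 12 h, 1625 to 3054 at 24 h, 1106 to 4637 in unruptured and 6045 to 9420 in ruptured follicles. For 5 theca markers it was 5752 to 8794, 2521 to 4676, 2735 to 2958, 2616 to 3203 and 1535 to 1862 in the same order. Of the granulosa and theca markers, 1 in each list had a mean over all arrays at or below the median of all probe-set means. The sum of 10 macrophage markers was 1436 to 2543 at 0 h and 1977 to 4923 at 12 h. For 10 endothelial markers it was 1055 to 2182 at 0 h, 1507 to 2490 at 12 h and 1631 to 2304 at 24 h. It was 2198 to 2983 in unruptured and 2215 to 3221 in ruptured follicles, and only these 36 h groups did not overlap 0 h. For 5 smooth muscle markers it was 7618 to 11236, 11239 to 14080, 12883 to 13233, 11063 to 14864 and 12412 to 16205 in the same order. Of these, the unruptured group overlapped 0 h. These sums moved between the same groups as the members below, and their part in the results was not tested.

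Over the 5 groups, 14 of the 52 members differed in limma's moderated F test (adjusted p under 0.05), which is 26.9% of them, where 20.1% of all probe sets and 29% of the brightest probe sets of named genes did. They were 6 of the 13 receptors (FZD1, FZD4, FZD5, FZD7, FZD10 and LRP6), 2 of the 9 antagonists (DKK3 and SFRP2), 2 of the 5 cytoplasmic regulators (AXIN2 and DVL2), 2 of the 3 nuclear factors (TCF7L1 and TCF7L2), RSPO1, and 1 of the 17 ligands (WNT9B). A further 6 members (APC, GSK3B, ROR2, SFRP4, SFRP5 and WNT7B) passed in a comparison of 2 groups only, and 32 passed in none. The members called lay mostly among the brighter genes: 31 members were above the median of all probe-set means (4.63), and 12 of those were called, where 35.9% of all probe sets that bright were. Of the 21 members at or below that median, 2 were called, where 4.36% of all probe sets that dim were.

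**Figure D1:**
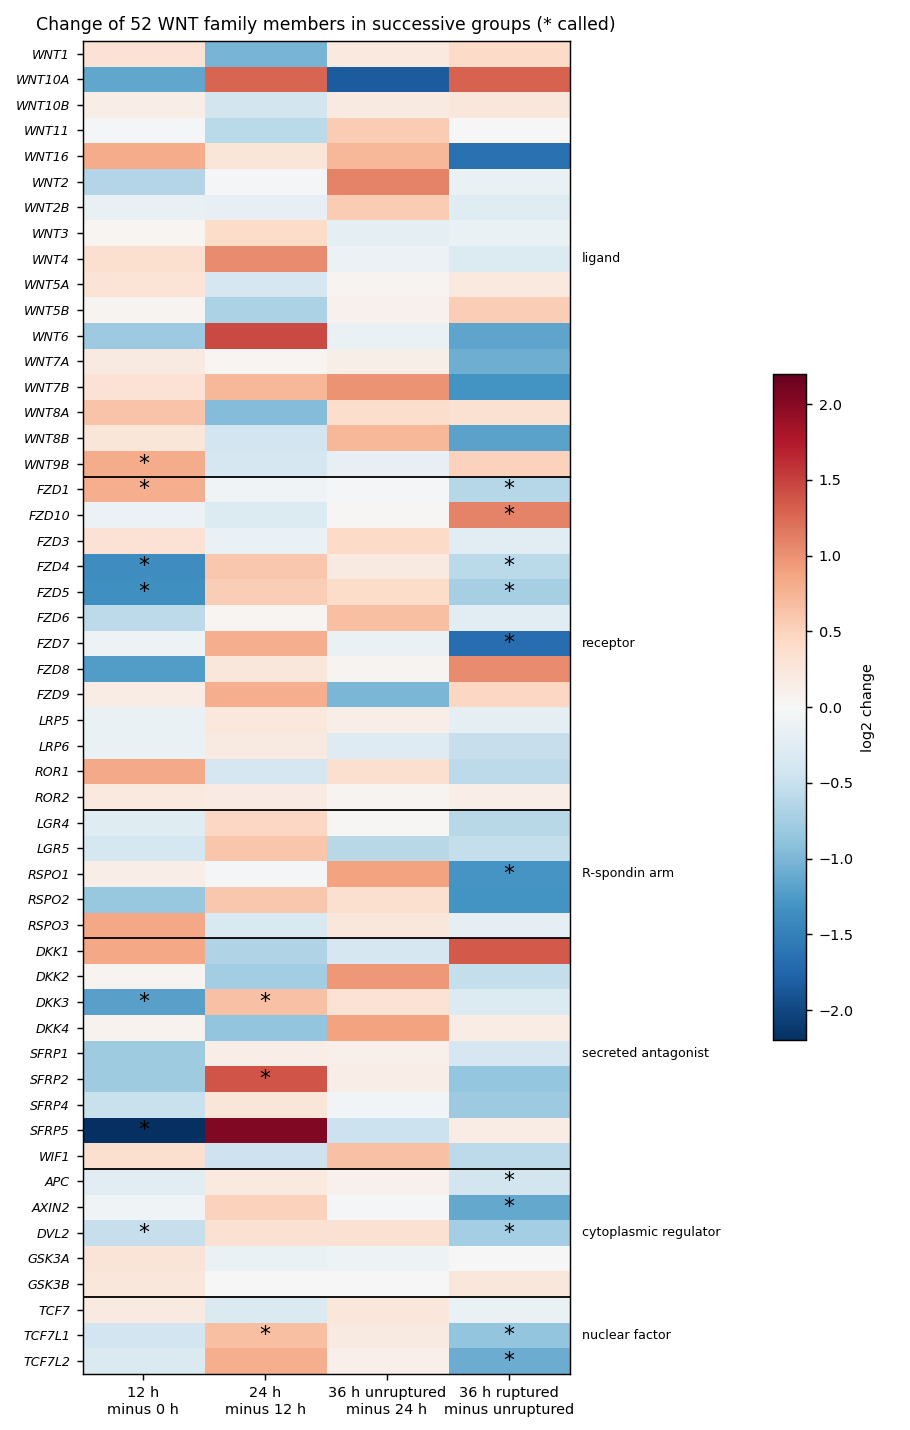
Log2 change of each of the 52 members between successive groups, with members in rows by role and the 4 comparisons in columns. Red is higher and blue lower in the later or ruptured group, and an asterisk marks an adjusted p under 0.05. The asterisks gather in the first column (7 members) and the last (11), with 3 at 24 h and 0 between 24 h and unruptured 36 h follicles.

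From 0 h to 12 h, 7 members were called, which is 13.5% of them against 9.33% of all probe sets and 14.3% of the brightest probe sets of named genes. Of these, 2 were higher and 5 lower, where 4.28% and 5.05% of all probe sets were. From 12 h to 24 h, 3 members (5.77%) were called, where 6.88% of all probe sets and 10.9% of named genes were. All 3 were higher, where 3.67% of all probe sets were called higher and 3.2% lower. The shares in both comparisons were near or under those of named genes at large. Fitted on the arrays compared alone, 4 members were called at 12 h and 0 from 12 h to 24 h. The latter count was also 0 without 12 h follicle 1, 5 without 12 h follicle 2 and 1 without 24 h follicle 2 or 3. Unruptured 36 h follicles differed from 24 h follicles in 0 members by limma, where 0.00379% of all probe sets, all of them lower, and 0.00708% of named genes were called and 4 members (DKK2, FZD6, RSPO1 and WNT2B) had an unadjusted p under 0.05. Ruptured against unruptured follicles at 36 h gave 11 members, which is 21.2% of them against 9.82% of all probe sets and 14.1% of named genes. They were 1 higher and 10 lower, where 4.83% and 4.99% of all probe sets were, and the median change of the 52 was −0.30, where that of all probe sets was −0.03. The 12 h arrays enter both of the first 2 comparisons and the unruptured arrays both of the last 2, so those pairs are not independent of each other.

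The ligands had the smallest share of members called over the 5 groups, 5.88%. Most of them lay at or below the median of all probe-set means, where 4.36% of all probe sets were called. WNT5A, which signals mostly through the branch that does not use beta-catenin, lay at 8.67, 9.10 and 9.53 at 0 h (lowest, median and highest of 6). It read 9.71, 9.00, 8.58 and 10.12 at 12 h, 8.81, 8.85, 8.98 and 9.28 at 24 h, 9.18, 8.91, 8.95 and 9.11 in unruptured and 9.44, 8.82, 9.20 and 9.56 in ruptured follicles. All groups overlapped, and the group means lay within 0.37 of each other. The 95% interval of WNT5A ran from −0.21 to 0.80 for 12 h against 0 h and from −0.34 to 0.77 for ruptured against unruptured follicles, so changes within those bounds could not be told from none. Intervals here and below are of single genes and are not adjusted for the number of tests.

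WNT2B and WNT3 were the only other ligands not called whose probe sets lay above the median of all probe-set means. WNT2B had group means of 6.77 to 7.33 and its interval for ruptured against unruptured follicles was −0.73 to 0.21. WNT3, a ligand of the beta-catenin branch, had means of 5.20 to 5.64. The other 12 uncalled ligands (WNT1, WNT2, WNT4, WNT5B, WNT6, WNT7A, WNT8A, WNT8B, WNT10A, WNT10B, WNT11 and WNT16) read at or below that median, where no detection call was given and a change cannot be sized well. WNT4, for example, had a mean of 2.35 ± 1.90 at 0 h (SD, n = 6) and 3.75 ± 0.45 at 24 h (SD, n = 4).

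WNT9B was called, but at a low level. Its values were 1.47, 1.99 and 2.44 at 0 h (lowest, median and highest), 2.28, 3.21, 3.02 and 2.85 at 12 h, 2.34, 2.38, 2.55 and 2.59 at 24 h, 2.53, 2.44, 1.71 and 2.48 unruptured, and 2.95, 2.71, 2.36 and 3.16 ruptured. The 12 h and ruptured follicles read highest, with 1 of 4 in each inside the 0 h range. It was higher than at 0 h by 0.82 ± 0.22 at 12 h (SE; limma adjusted p = 0.0241) and by 0.78 in ruptured follicles (adjusted p = 0.0206). The 12 h call ended without 0 h follicle 4 or without 12 h follicle 2, 3 or 4, the ruptured one without ruptured follicle 5 or 8, and both ended with 16 added to the intensities. WNT7B, another dim ligand, was higher in unruptured 36 h follicles than at 0 h by 2.05 ± 0.54 (adjusted p = 0.0331), a call kept in 14 of the 22 fits that each left out 1 array.

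Among the receptors, the brightest probe sets of FZD4 and FZD5 were lower at 12 h, at 24 h and after rupture than at 0 h. Their lowest means were at 12 h. FZD1 was higher from 12 h until rupture, and FZD7 was highest at 24 h and in unruptured follicles and lowest after rupture. FZD4 read 7.81, 8.43 and 8.79 at 0 h (lowest, median and highest), and 6.70, 7.30, 6.94 and 7.07 at 12 h. It read 7.68, 7.52, 7.55 and 7.64 at 24 h, 7.94, 7.73, 7.77 and 7.76 in unruptured and 7.42, 7.16, 6.98 and 7.24 in ruptured follicles. Every 12 h follicle lay below every 0 h follicle, and every ruptured one below every unruptured one.

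FZD4 fell by 1.36 on the log2 scale from 0 h to 12 h (SE 0.16; limma adjusted p = 5.28e-05), a factor of 2.57. It was below 0 h by 0.77 at 24 h (adjusted p = 0.0119) and by 1.17 after rupture (adjusted p = 7.71e-05), while at unruptured 36 h the difference of −0.57 missed the threshold (adjusted p = 0.0533). Ruptured follicles were lower than unruptured ones by 0.60 ± 0.18 (adjusted p = 0.0406), a call kept in 13 of the 22 fits without 1 array. The second probe set of FZD4 was dim, with a mean of 3.27, and was called in no comparison. With the mean of both probe sets, all of these calls were lost. The changes from 0 h were then −0.99 at 12 h, −0.50 at 24 h and −0.67 after rupture. Ruptured follicles then differed from unruptured ones by −0.21.

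FZD5 read 6.81, 7.50 and 7.59 at 0 h (lowest, median and highest), 5.97, 6.06, 5.90 and 6.21 at 12 h, 7.01, 6.82, 6.28 and 6.22 at 24 h, 7.00, 7.27, 6.49 and 7.15 unruptured, and 6.13, 6.34, 6.44 and 6.05 ruptured. The 12 h and the ruptured follicles were the lowest, and neither overlapped the 0 h follicles. FZD5 fell by 1.35 from 0 h to 12 h (SE 0.19; limma adjusted p = 0.000214), was below 0 h by 0.81 at 24 h (adjusted p = 0.0231) and by 1.15 after rupture (adjusted p = 0.000369), and was lower in ruptured than unruptured follicles by 0.74 ± 0.21 (adjusted p = 0.0303). The 24 h call ended without 0 h follicle 3 or 5 or 24 h follicle 3 or 4, and the rupture call without unruptured follicle 1, 2 or 4 or ruptured follicle 5 or 8. A dimmer second probe set (mean 4.97, above the median of all probe-set means) was called nowhere. It changed from 0 h by −0.23 at 12 h and −0.0009 after rupture, and by −0.07 from unruptured to ruptured follicles. With the mean of both probe sets, the calls against 0 h were kept, with −0.79 at 12 h. The rupture call was lost, at −0.41.

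FZD1 moved the other way. Its values were 8.47, 8.75 and 9.13 at 0 h (lowest, median and highest), 9.38, 9.79, 9.59 and 9.60 at 12 h, 9.54, 9.25, 9.59 and 9.66 at 24 h, 9.79, 9.23, 9.33 and 9.56 unruptured, and 9.03, 8.78, 8.54 and 9.04 ruptured. All 12 follicles from 12 h to unruptured 36 h lay above all 6 at 0 h and all 4 ruptured ones, and the ruptured follicles lay within the 0 h range. It rose by 0.80 ± 0.15 from 0 h to 12 h (limma adjusted p = 0.00189), was above 0 h by 0.72 at 24 h (adjusted p = 0.00904) and by 0.69 in unruptured 36 h follicles (adjusted p = 0.0105), and was lower by 0.63 ± 0.16 in ruptured than in unruptured ones (adjusted p = 0.0183). Of its 4 probe sets, 3 were called higher at 12 h and 2 lower after rupture, and the rupture call of the brightest ended without unruptured follicle 1 or 4 or ruptured follicle 7.

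FZD7 had its lowest values after rupture. It read 8.42, 9.11 and 9.80 at 0 h (lowest, median and highest), 8.34, 9.26, 9.18 and 8.95 at 12 h, 9.69, 9.96, 9.66 and 9.64 at 24 h, 9.91, 9.41, 9.08 and 9.94 unruptured, and 8.12, 7.61, 6.92 and 9.01 ruptured. Ruptured follicles were lower than unruptured ones by 1.67 ± 0.36 (SE; limma adjusted p = 0.00591), a factor of 3.19, without overlap but with ruptured follicle 8 close to the lowest unruptured one. Both of its probe sets were called lower there. Against 0 h the ruptured follicles were lower by 1.13 ± 0.33 (adjusted p = 0.0235), with overlap, and that call ended without 0 h follicle 4 or ruptured follicle 6 or 7.

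FZD10 was the only member whose brightest probe set was called higher after rupture than before it. It read 3.49, 3.90 and 4.39 at 0 h, 3.55, 3.65, 3.98 and 3.96 at 12 h, 3.13, 3.79, 3.77 and 3.25 at 24 h, 3.78, 3.86, 3.24 and 3.17 unruptured, and 4.96, 4.14, 5.03 and 4.29 ruptured. The ruptured follicles lay above all unruptured ones, by 1.09 ± 0.25 in the mean (SE; limma adjusted p = 0.00823). Its level was below the median of all probe-set means, its dimmer probe set was called nowhere, and with the mean of both probe sets the call was lost and the difference from 0 h turned from 0.69 (adjusted p = 0.0434) to −0.34. The 0 h call was kept in 15 of the 22 fits without 1 array.

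The co-receptor LRP6 had group means of 7.16 ± 0.27 at 0 h (SD, n = 6), 7.00 ± 0.08 at 12 h, 7.20 ± 0.22 at 24 h, 6.91 ± 0.27 unruptured and 6.40 ± 0.10 ruptured (SD, n = 4 each). All 4 ruptured follicles, at 6.30, 6.33, 6.48 and 6.50, lay below every other follicle. The difference from 0 h was −0.75 ± 0.15 (SE; limma adjusted p = 0.00166), and that from unruptured follicles was −0.51 ± 0.16, which missed the threshold (adjusted p = 0.0577). A second, dimmer probe set of LRP6 went the other way: it was called higher by 1.32 ± 0.33 at 12 h than at 0 h (adjusted p = 0.0144), by 1.29 ± 0.36 in ruptured than unruptured follicles (adjusted p = 0.0264) and by 1.12 ± 0.33 in ruptured follicles than at 0 h (adjusted p = 0.0231). LRP6 therefore has no direction that holds for both of its probe sets.

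ROR2, a receptor for WNT5A, had a mean of 6.51 ± 0.29 at 0 h (SD, n = 6) and 7.11 ± 0.44 after rupture (SD, n = 4), a difference of 0.60 ± 0.20 (SE; limma adjusted p = 0.0483) that was kept in 3 of the 22 fits without 1 array. The other 6 receptors (FZD3, FZD6, FZD8, FZD9, LRP5 and ROR1) were called in no comparison, and the range of their group means was 0.38 in LRP5 to 1.33 in FZD8.

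**Figure D2:**
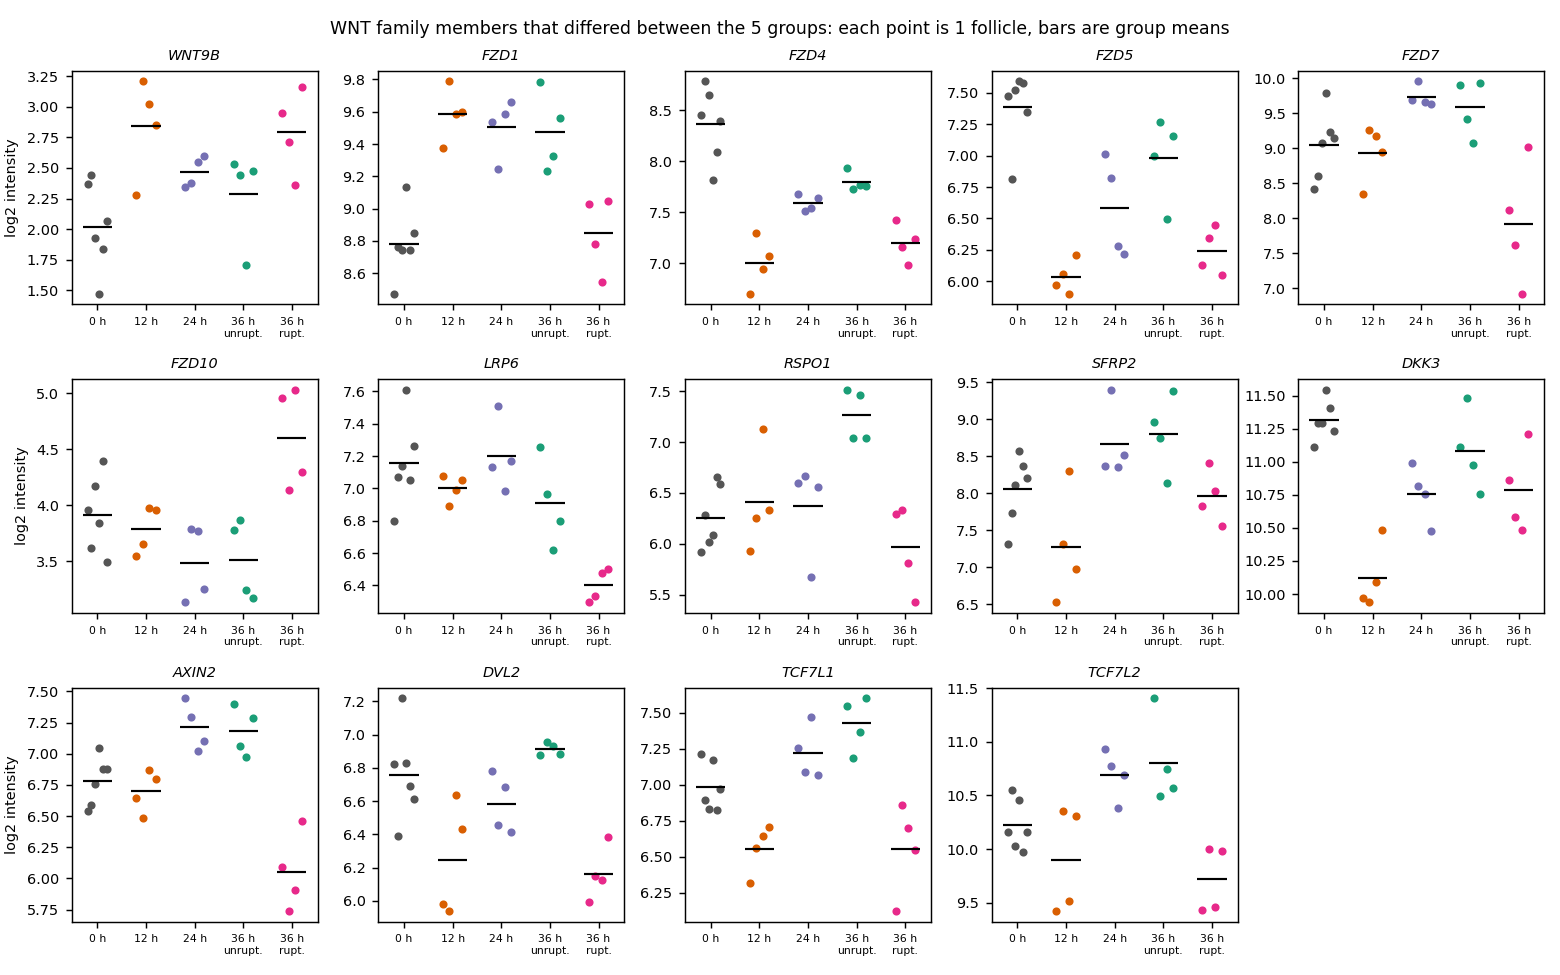
Log2 intensity of the 14 members that differed over the 5 groups, 1 panel per gene with its own vertical scale. Each point is 1 follicle and each bar a group mean. FZD4 and FZD5 drop at 12 h, and FZD1 is high from 12 h until rupture. AXIN2, DVL2, FZD1, FZD4, FZD5, FZD7, LRP6, RSPO1, TCF7L1 and TCF7L2 are lower in the ruptured than the unruptured group without overlap. Of all members 23.1% did not overlap between these groups in either direction, against 15.2% of all probe sets.

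In the R-spondin arm, RSPO1 was highest in the unruptured follicles at 36 h. It read 5.92, 6.18 and 6.65 at 0 h (lowest, median and highest), 5.93, 6.25, 7.13 and 6.33 at 12 h, 6.60, 6.66, 5.67 and 6.56 at 24 h, 7.52, 7.04, 7.47 and 7.04 unruptured, and 6.29, 6.34, 5.81 and 5.42 ruptured. Every unruptured 36 h follicle lay above all others except the 12 h follicle at 7.13. The unruptured group was above 0 h by 1.01 ± 0.25 (SE; limma adjusted p = 0.0274), a call that ended without 0 h follicle 1, 3 or 4 or unruptured follicle 1 or 3. Ruptured follicles were lower than unruptured ones by 1.30 ± 0.28 (adjusted p = 0.00568), a factor of 2.46, and this call was kept with every array left out. The difference of 0.89 from 24 h to unruptured 36 h did not pass (adjusted p = 0.653), with a 95% interval of 0.31 to 1.48.

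RSPO2, RSPO3, LGR4 and LGR5 were not called. LGR4, a receptor for R-spondins, had the smallest range of group means among them, 0.61, and in ruptured against unruptured follicles its difference was −0.61 with an interval of −1.14 to −0.07 (adjusted p = 0.158). A second, dim probe set of LGR4 (mean 2.73) went the other way there, by 0.69, and was not called. RSPO2 had means of 5.99 ± 0.69 unruptured and 4.67 ± 0.55 ruptured (SD, n = 4 each), a difference of −1.32 that did not pass (adjusted p = 0.129).

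Among the secreted antagonists, DKK3, an atypical member of its family, was bright in all groups and lower at 12 h by its brightest probe set. That probe set read 11.11, 11.29 and 11.54 at 0 h (lowest, median and highest), 9.97, 9.94, 10.09 and 10.49 at 12 h, 10.99, 10.81, 10.76 and 10.48 at 24 h, 11.11, 11.48, 10.98 and 10.75 unruptured, and 10.86, 10.58, 10.49 and 11.21 ruptured. The 12 h follicles lay below all 0 h follicles, and 1 of them overlapped the 24 h range. The change was −1.19 ± 0.17 from 0 h to 12 h (SE; limma adjusted p = 0.000203), then 0.64 ± 0.18 from 12 h to 24 h (adjusted p = 0.0413), and ruptured follicles stood below 0 h by 0.53 (adjusted p = 0.0373). The 24 h and rupture calls were kept in 12 and 15 of the 22 fits without 1 array.

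DKK3 has 6 probe sets on the array, and they disagreed. From 0 h to 12 h the brightest and the next (−1.05 ± 0.17; limma adjusted p = 0.000724) were called lower, while the next 2 in brightness were called higher, by 1.10 ± 0.31 (adjusted p = 0.029) and 1.02 ± 0.30 (adjusted p = 0.0372). Averaged over all 6, the change at 12 h was −0.03. The values of DKK3 at 12 h are therefore those of single probe sets, and no direction is given for the gene.

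**Figure D3:**
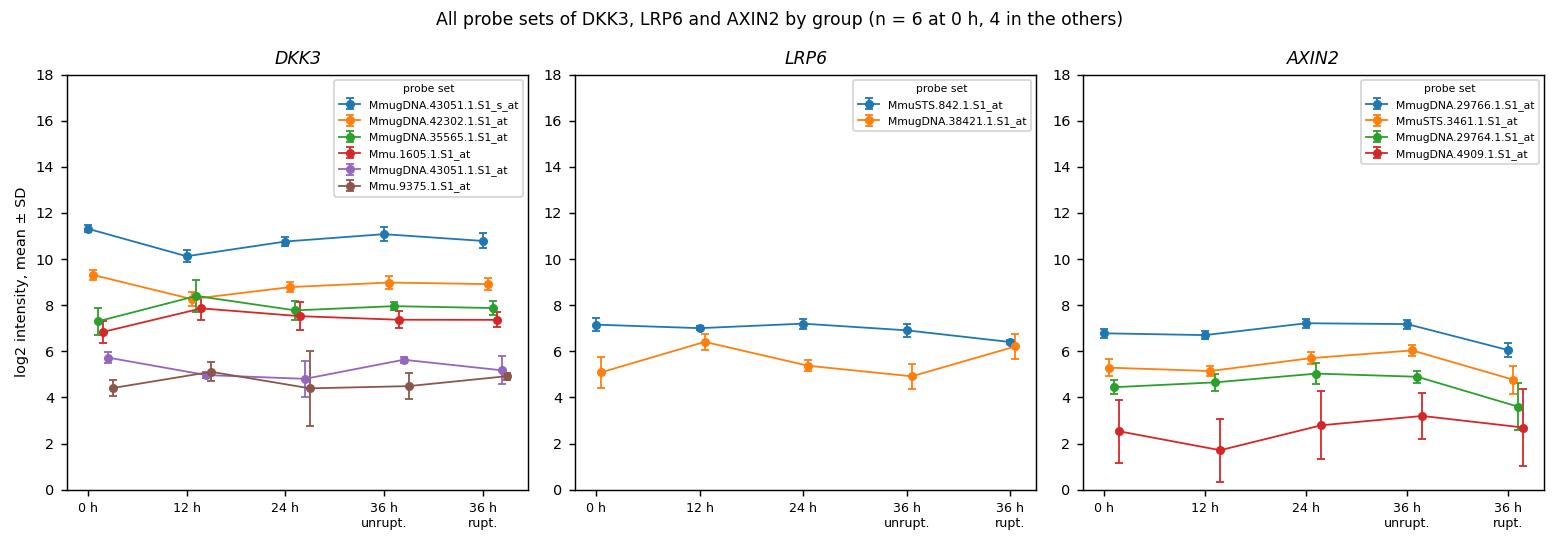
Mean log2 intensity of every probe set of DKK3, LRP6 and AXIN2 in the 5 groups, with error bars of 1 SD (n = 6 at 0 h, 4 in each other group). The 2 brightest probe sets of DKK3 dip at 12 h while the next 2 rise, the dimmer one of LRP6 is high at 12 h and after rupture, where the brighter one has its lowest mean after rupture, and 3 of the 4 of AXIN2 were called lower after rupture.

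SFRP2, which binds WNT ligands outside the cell, read 7.31, 8.16 and 8.57 at 0 h (lowest, median and highest), 6.52, 7.31, 8.30 and 6.98 at 12 h, 8.37, 9.40, 8.36 and 8.52 at 24 h, 8.96, 8.74, 8.14 and 9.39 unruptured, and 7.83, 8.41, 8.03 and 7.56 ruptured. All 24 h follicles lay above all 12 h follicles. It rose by 1.39 ± 0.36 from 12 h to 24 h (SE; limma adjusted p = 0.0255), a factor of 2.61, and this call ended without 12 h follicle 1 or 4 or 24 h follicle 2.

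SFRP1 and SFRP4 are related ligand-binding proteins. SFRP4 read 9.33, 9.73 and 10.45 at 0 h (lowest, median and highest) and 8.55, 8.58, 9.00 and 8.64 after rupture, without overlap, a difference of −1.08 ± 0.30 (limma adjusted p = 0.0188). That call ended without ruptured follicle 5 or 6, and 1 of the 4 probe sets of SFRP4 was called. The other 3 changed by 0.00, 0.06 and 0.39, and the mean of all 4 differed by −0.16 (adjusted p = 0.494), so the decrease is that of 1 probe set. SFRP1 was not called by its brightest probe set, which was lower by 0.89 ± 0.31 after rupture than at 0 h (adjusted p = 0.0629), but a dimmer one was lower than at 0 h by 1.57 ± 0.37 in unruptured (adjusted p = 0.0175) and by 1.88 ± 0.37 in ruptured follicles (adjusted p = 0.0014).

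A single 12 h follicle, number 3, read high for several secreted members. It was the highest of its group for SFRP1 (11.21, the others 9.63 to 9.94), SFRP2 (8.30, the others 6.52 to 7.31), SFRP4 (10.28, the others 8.55 to 9.27), WIF1 (9.68, the others 6.44 to 8.26), RSPO1 (7.13, the others 5.93 to 6.33) and RSPO3 (6.95, the others 4.01 to 5.15). Over all 52 members it did not stand apart: it was the highest 12 h follicle for 17, follicle 4 for 16, follicle 2 for 14 and follicle 1 for 5. It also had the highest macrophage marker sum of the 12 h group (4923), the lowest granulosa (2676) and theca (2521) sums, and the largest difference between 3′ and 5′ control probes of all arrays (0.482), and the part of these in its values was not tested.

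That follicle was singled out by these same values, so leaving it out had to lower the 12 h means, and what follows shows only how far 1 array decides the calls. Without it, SFRP1 and SFRP2 were called lower at 12 h than at 0 h, by 1.13 ± 0.29 (SE; limma adjusted p = 0.0205) and 1.12 ± 0.32 (adjusted p = 0.0352). With all arrays the differences were −0.78 in both, with adjusted p = 0.139 and 0.169. The rise of SFRP2 from 12 h to 24 h became 1.73 without it (adjusted p = 0.00544). SFRP5, a dim antagonist, went the other way: its difference of −2.20 ± 0.57 at 12 h (adjusted p = 0.0181) became −1.82 (adjusted p = 0.0702), and the call also ended without 12 h follicle 1 and with 16 added to the intensities.

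**Figure D4:**
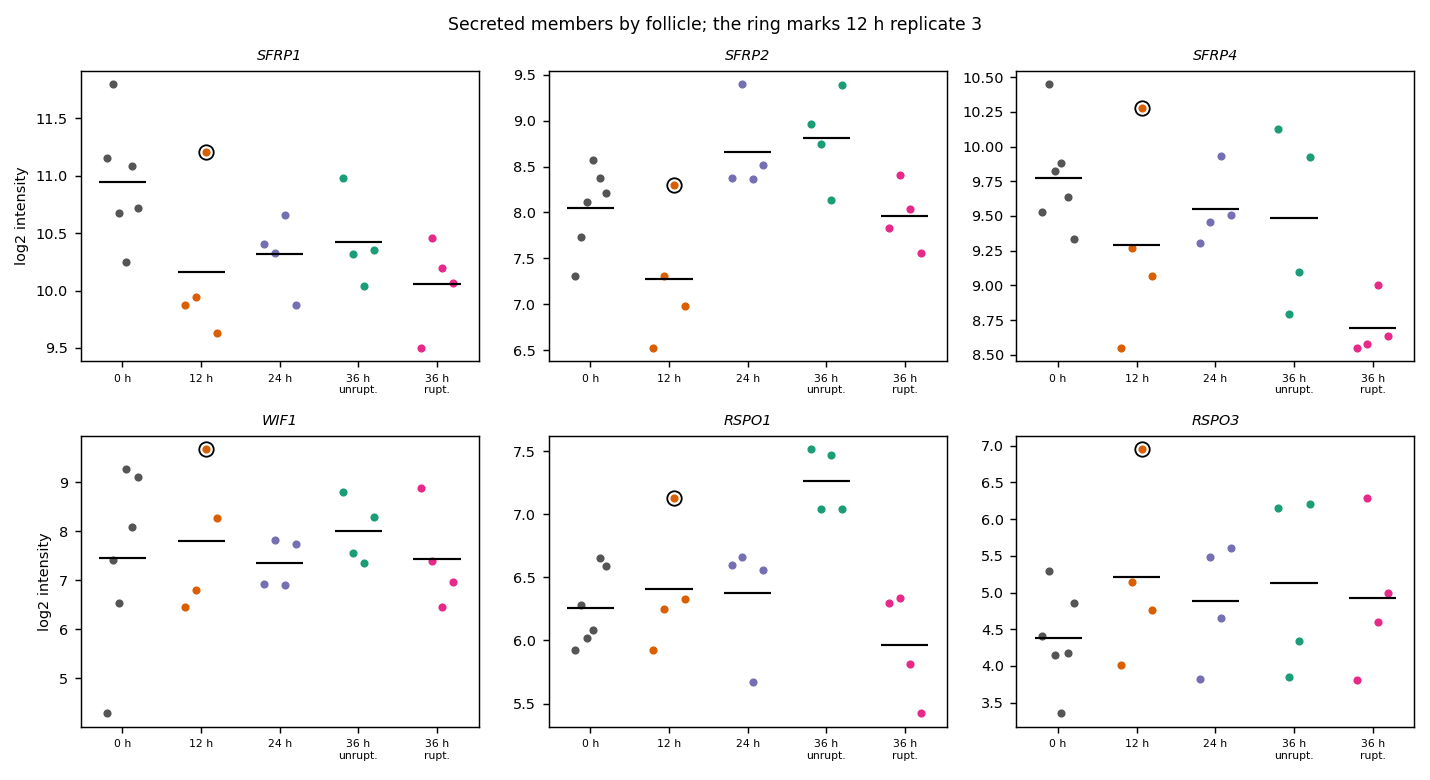
Log2 intensity of 4 secreted antagonists and 2 R-spondins by follicle, with bars at the group means and a ring around 12 h follicle 3, 1 panel per gene with its own vertical scale. The ringed point is the highest of the 12 h group in all 6 panels, at 11.21 for SFRP1 and 6.95 for RSPO3.

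WIF1, DKK1, DKK2 and DKK4 were not called. WIF1 varied more between follicles of a group than between groups: it ran from 4.28 to 9.27 at 0 h, and its group means lay within 0.65 of each other. Its interval for ruptured against unruptured follicles was −2.44 to 1.29, so changes within those bounds could not be told from none. DKK1, which blocks LRP6, had means of 4.09 ± 1.22 unruptured and 5.44 ± 0.82 ruptured (SD, n = 4 each), a difference of 1.36 with an interval of 0.23 to 2.48 (adjusted p = 0.127).

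Of the cytoplasmic regulators, AXIN2 had the lowest adjusted p of all members in ruptured against unruptured follicles. AXIN2 is a scaffold of the destruction complex and a widely used target gene of beta-catenin signalling. It read 6.54, 6.82 and 7.04 at 0 h (lowest, median and highest), 6.65, 6.49, 6.87 and 6.80 at 12 h, 7.44, 7.29, 7.02 and 7.11 at 24 h, 7.40, 7.06, 6.97 and 7.29 unruptured, and 6.10, 5.74, 5.91 and 6.46 ruptured. The ruptured follicles lay below every follicle of every other group. They were lower than unruptured ones by 1.13 ± 0.16 (SE; limma adjusted p = 0.00028), a factor of 2.19, and lower than 0 h by 0.73 (adjusted p = 0.00214), and both calls were kept with every array left out. Of its 4 probe sets, 3 were called lower in ruptured than unruptured follicles, but only the brightest was called lower than at 0 h, where the 4 changes ran from −0.85 to 0.16. With the mean of all 4, the difference from 0 h was −0.48 and no longer called (adjusted p = 0.197). The difference of 0.51 ± 0.16 from 12 h to 24 h had no overlap between the groups but missed the threshold (adjusted p = 0.0669).

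DVL2, a dishevelled protein that relays the receptor signal, read 6.39, 6.76 and 7.22 at 0 h (lowest, median and highest), 5.98, 5.94, 6.63 and 6.43 at 12 h, 6.78, 6.46, 6.68 and 6.42 at 24 h, 6.88, 6.96, 6.93 and 6.88 unruptured, and 5.99, 6.15, 6.12 and 6.39 ruptured. The unruptured follicles were tightly grouped and all above the ruptured ones, by 0.75 ± 0.17 in the mean (SE; limma adjusted p = 0.00949). The ruptured group was below 0 h by 0.60 (adjusted p = 0.0139), a call lost without ruptured follicle 5. At 12 h the difference from 0 h of −0.51 ± 0.16 only just passed (adjusted p = 0.0497), and it was kept in 3 of the 22 fits without 1 array.

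APC, the large scaffold of the destruction complex, had means of 6.70 ± 0.06 unruptured and 6.30 ± 0.17 ruptured (SD, n = 4 each). The difference of −0.40 ± 0.12 (SE; limma adjusted p = 0.0453) had no overlap and was kept in 9 of the 22 fits without 1 array. Of the 3 probe sets of APC, 1 was called lower there, with changes from −0.40 to −0.25. The call was kept in 2 of 8 other settings and lost with the mean of its probe sets. GSK3B, a kinase that marks beta-catenin, was higher after rupture than at 0 h by 0.52 ± 0.14 (adjusted p = 0.0182), a call lost without ruptured follicle 8. GSK3A was called nowhere, and its interval for ruptured against unruptured follicles, −0.22 to 0.24, was the narrowest bound on a change given here.

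Both TCF7L factors, which bind DNA at the end of the beta-catenin branch, were lower after rupture. TCF7L1 read 6.82, 6.93 and 7.21 at 0 h (lowest, median and highest), 6.31, 6.56, 6.64 and 6.70 at 12 h, 7.26, 7.09, 7.47 and 7.07 at 24 h, 7.55, 7.19, 7.37 and 7.60 unruptured, and 6.12, 6.86, 6.70 and 6.55 ruptured. The 24 h follicles lay above all 12 h follicles and the unruptured ones above all ruptured ones. TCF7L1 rose by 0.66 ± 0.16 from 12 h to 24 h (SE; limma adjusted p = 0.0162), a call lost without 12 h follicle 1 or 24 h follicle 3, and was lower in ruptured than unruptured follicles by 0.87 ± 0.16 (adjusted p = 0.0019), a call kept with every array left out.

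TCF7L2 read 9.98, 10.16 and 10.55 at 0 h (lowest, median and highest), 9.42, 10.36, 9.51 and 10.31 at 12 h, 10.93, 10.77, 10.38 and 10.69 at 24 h, 11.41, 10.49, 10.75 and 10.57 unruptured, and 9.43, 10.00, 9.46 and 9.99 ruptured. Unruptured and ruptured follicles did not overlap, and the difference was −1.09 ± 0.24 (SE; limma adjusted p = 0.00779), a factor of 2.12. Of its 6 probe sets, 5 were called lower there. TCF7 was called in no comparison, and its group means lay within 0.31 of each other.

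Set side by side, the rupture comparison held calls in the receptors (4 lower, 1 higher of 13), the R-spondin arm (1 lower of 5), the cytoplasmic regulators (3 lower of 5) and the nuclear factors (2 lower of 3), and 0 by limma in the 17 ligands and the 9 antagonists, where 1 ligand and 3 antagonists had an unadjusted p under 0.05. In all, 12 members did not overlap between the groups, which is 23.1% of them against 15.2% of all probe sets. Of the 31 brighter members 10 were called, where 17.8% of all probe sets that bright were. Of the 21 dimmer members, most ligands among them, 1 was called, where 1.88% of all probe sets that dim were. The counts by role are therefore not comparable without regard to brightness. The summed theca markers were lower and the summed granulosa markers higher in the ruptured follicles, as given above, but 1 of 5 theca and 1 of 8 granulosa markers was called. NR2F2, a nuclear receptor of theca and stroma and the brightest marker of its list, was lower by 0.88 ± 0.14 (limma adjusted p = 0.000616), and the activin subunit INHBA was higher by 3.20 ± 0.46 (adjusted p = 0.000245). The other theca markers differed by −0.67 (GLI1) to 0.05 (PTCH1), and among the granulosa markers HSD17B1 and AMH read lower, by −0.45 and −0.34, none of them called. Fitted on the 8 arrays of these groups alone, 3 of the 11 calls were kept (AXIN2, DVL2 and RSPO1), and without unruptured follicle 1 or 4, 7 members were called.

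Against 0 h, 3 members were called at 24 h (FZD1 higher, FZD4 and FZD5 lower), where 3.36% of all probe sets (1.66% higher, 1.69% lower) and 5.49% of named genes were. In unruptured 36 h follicles 3 were called, all higher (FZD1, RSPO1 and WNT7B), against 4.72% of all probe sets (2.08% higher, 2.65% lower) and 7.18% of named genes. This count was 1 without 0 h follicle 1 or 3 or unruptured follicle 1 or 3. In ruptured follicles 12 were called, which is 23.1% of the members against 15.8% of all probe sets and 21.3% of named genes. They were 4 higher and 8 lower, where 7.01% and 8.78% of all probe sets were. Without ruptured follicle 5 that count was 6. Fitted on the arrays compared alone, it was also 6, and at 24 h it was 1. The 3 comparisons share the 0 h follicles.

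Other genes of the pathway were taken from 6 lists by role. The list of other secreted and surface modulators had 13 of its 18 genes on the array, and 4 rose from 12 h to 24 h and 0 fell, where 6.88% of all probe sets and 10.9% of named genes were called. These were APCDD1, a surface inhibitor of WNT signalling, by 1.52 ± 0.34 (SE; limma adjusted p = 0.0105), KREMEN1, a receptor for DKK proteins, by 1.22 ± 0.18 (adjusted p = 0.000701), the glypican GPC6 by 1.04 ± 0.21 (adjusted p = 0.0048) and the co-receptor PTK7 by 0.74 ± 0.19 (adjusted p = 0.0216). KREMEN1 and GPC3 had fallen from 0 h to 12 h, by 0.78 and 0.86. APCDD1 stayed above 0 h afterwards, with differences of 1.58 (24 h), 1.95 (unruptured) and 1.71 (ruptured). PTK7 was the 1 gene of this list called lower after rupture, by 0.63.

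In the list of nuclear cofactors, 13 of 18 genes were measured, and ruptured against unruptured follicles differed in 7 of them, 3 higher and 4 lower, where 9.82% of all probe sets and 14.1% of named genes were called. TNIK, a kinase of the TCF complex, was higher by 1.42 ± 0.22 (limma adjusted p = 0.000498), the corepressor TLE3 by 0.87 ± 0.19 (adjusted p = 0.0055) and the chromatin remodeller CHD8 by 0.80 ± 0.14 (adjusted p = 0.00161). The acetyltransferases EP300 and CREBBP were lower by 0.67 and 0.43, BCL9 by 0.42 and HDAC1 by 0.40. TLE3 also rose by 0.70 from 0 h to 12 h and fell by 0.86 from 12 h to 24 h, and CHD8 followed the same course. Ruptured follicles against 0 h gave 7 calls in this list, 3 higher and 4 lower. Of all probe sets 15.8% and of named genes 21.3% were called there.

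The destruction complex list had 19 of 23 genes measured, and beta-catenin's own gene, CTNNB1, was not among those with a symbol of their own. After rupture 2 were higher and 2 lower than before it, a share of the list to be read against the same 9.82% and 14.1%. The kinases CSNK1A1 and CSNK1G2 were higher by 0.35 and 0.44, BTRC, which targets beta-catenin for destruction, was lower by 0.58, and TNKS, which destabilises AXIN, was lower by 0.78 ± 0.10 (limma adjusted p = 0.000132). TNKS had fallen by 0.49 from 0 h to 12 h and risen by 0.56 from 12 h to 24 h. Ruptured follicles against 0 h gave 4 calls in this list, 0 higher and 4 lower. Of all probe sets 15.8% and of named genes 21.3% were called there.

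In the planar polarity and calcium branch, 23 of 29 genes were measured. PRICKLE1, DAAM2 and INVS fell from 0 h to 12 h, by 0.92, 0.64 and 0.66, where 9.33% of all probe sets and 14.3% of named genes were called. From 12 h to 24 h 3 genes rose (DAAM2, INVS and NFATC1), where 6.88% and 10.9% were called. After rupture 5 were lower (VANGL1, DAAM2, ROCK1, CAMK2G and NFATC1) and 1 higher, PRKCA, by 1.15 ± 0.30 (limma adjusted p = 0.0186), where 9.82% of all probe sets and 14.1% of named genes were called. The calcium-dependent kinase gene CAMK2G had the largest decrease of the list, 1.00 ± 0.22 (adjusted p = 0.00679). Ruptured follicles against 0 h gave 7 calls in this list, 2 higher and 5 lower. Of all probe sets 15.8% and of named genes 21.3% were called there.

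Of 35 textbook target genes of beta-catenin signalling, 28 were measured, and 4 of the 28 are also members (AXIN2, DKK1, LGR5 and TCF7). By limma 0 were called from 0 h to 12 h, where 9.33% of all probe sets and 14.3% of named genes were. From 12 h to 24 h 0 were called, where 6.88% and 10.9% were. Ruptured against unruptured follicles gave 2, where 9.82% of all probe sets and 14.1% of named genes were called. MYC was higher by 0.87 ± 0.19 (limma adjusted p = 0.00517) and AXIN2 lower, as above, so these 2 did not share a direction. The median change of the 28 was 0.09 there. Against 0 h, ruptured follicles gave 4 targets, 3 higher and 1 lower, where 15.8% of all probe sets and 21.3% of named genes were called. The median change was then 0.25. In the list of WNT secretion genes, 4 of 6 were measured. The 2 calls were in ruptured follicles against 0 h, where 15.8% of all probe sets and 21.3% of named genes were called. PORCN, which attaches the lipid to WNT ligands, was higher by 1.03 ± 0.26 (limma adjusted p = 0.00876) and the transport protein gene TMED10 by 0.64 ± 0.19 (adjusted p = 0.0261).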

How the data were processed

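RNA of 22 follicles was measured on Affymetrix rhesus arrays, from 2 µg of RNA in the one-cycle protocol, per the labels' protocols. The deposited values are intensities on a linear scale, made with RMA per the submitters' processing notes, with no version stated in the sources used here. Detection calls, batches and scan dates were not among the labels or values, so no batch was tested. Here log2 was taken, 99 control probe sets were left out and 52766 were fitted with limma 3.58.1 in R 4.3.3 as group means of all 22 arrays. Tests were two-sided, p-values were adjusted by Benjamini-Hochberg over these probe sets, and a call is an adjusted p under 0.05.

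Of the probe sets tested, 24956 had a single symbol, 361 several and 27449 none in the platform annotation. All 52 members matched the RefSeq gene table, used only for names, and 22 of them have more than 1 probe set, 94 in all. Members and lists were chosen with earlier results of these data known. Members called over the 5 groups were given per follicle where called in at least 2 comparisons or with the largest change of their role. Others were given by group means. List genes were named by largest called change, up to 4 per list in the comparisons described, with some of the remaining ones named by symbol. Not every called list gene or comparison is given. Replicate numbers came from the titles, and the labels do not say whether they pair follicles. Deviations from group means correlated at −0.03 on average over 26 same-numbered pairs (−0.18 to 0.17). Over 166 different-numbered pairs the average was 0.005 (−0.20 to 0.30). An average near that of other pairs cannot show that no follicles were paired, and they were treated as unpaired.

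The procedure was tested on simulated data with 200 changed probe sets among 52766, with independent normal noise. All 200 lay above the median of probe-set means, so the recovery does not apply to the dimmer members. In ruptured against unruptured follicles it recovered 58% of 2-fold and 97% of 4-fold changes, with 4 false calls. That was the fewest among the 7 comparisons, and the most was 21, for unruptured 36 h against 0 h. The number of arrays limits the precision. Alternatives were 16 added to the intensities, dim probe sets left out, quantile normalization, array weights, the 3′ minus 5′ control probe index as a covariate, a replicate block, the mean of a gene's probe sets, only the arrays compared, and each array left out.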

Additional observations from a re-analysis of the deposited data

Results flagged for a closer look

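The 20 called members were checked for a follicle far from the rest of its group by Dixon's criterion. Of 100 groups checked, 5 held such a follicle, and chance gives about 1 in 20. FZD5 read 6.81 in 0 h follicle 2, the others 7.35 to 7.59. FZD7 read 9.96 in 24 h follicle 2, the others 9.64 to 9.69. SFRP2 read 9.40 in the same 24 h follicle, the others 8.36 to 8.52. RSPO1 read 5.67 in 24 h follicle 3, the others 6.56 to 6.66. WNT9B read 1.71 in unruptured follicle 3, the others 2.44 to 2.53.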

How the results depend on the processing

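Of 39 called member changes, 18 were kept with every array left out, and 2 (FZD1 and FZD5 from 0 h to 12 h) also under every other alternative. With 1 array left out, the members called were 13 to 15 over the 5 groups, 5 to 7 at 12 h, 0 to 5 from 12 h to 24 h, 0 from 24 h to unruptured 36 h, 7 to 12 for rupture, and 2 to 3, 1 to 3 and 6 to 12 against 0 h at 24 h, unruptured and ruptured 36 h. With only the arrays compared they were 4 at 12 h, 0 from 12 h to 24 h, 3 for rupture, and 1 at 24 h and 6 after rupture against 0 h. Adding 16 to the intensities, or leaving out dim probe sets, gave 6 from 12 h to 24 h, and the latter gave 5 for 24 h against 0 h. The mean of a gene's probe sets gave 7 for rupture and 7 for ruptured follicles against 0 h, and turned DKK3 from 12 h to 24 h (−0.11), and in ruptured follicles against 0 h DKK3 (0.023), FZD10 (−0.34) and LRP6 (0.18). The labels do not say whether the numbers used in the replicate block pair follicles. That block left 6 members over the 5 groups, 4 at 12 h, 1 from 12 h to 24 h and 0 for rupture and for each later group against 0 h. Ruptured follicles carry other numbers than unruptured ones. Their numbers 7 and 8 occur in no other group, so with the block those arrays do not enter any comparison. Their numbers 5 and 6 are shared with 0 h only. The count of 0 for rupture under the block therefore cannot show whether the rupture calls are stable. The cause of these shifts was not tested. Dim genes, most ligands among them, are limited by signal.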
